A study of Oryza sativa with 12 samples.

Results

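The 10 core circadian clock genes of rice described here were taken by locus identifier from the 32846 genes of the deposited tables: LHY (LOC_Os08g06110), PRR1 (LOC_Os02g40510), PRR37 (LOC_Os07g49460), PRR73 (LOC_Os03g17570), PRR59 (LOC_Os11g05930), PRR95 (LOC_Os09g36220), GI (LOC_Os01g08700), ELF3-1 (LOC_Os06g05060), LUX (LOC_Os01g74020) and FKF1 (LOC_Os11g34460). Their levels were measured by RNA-seq in leaf blades of wild type (WT) rice and of Oshmgb1 mutants, plants changed in the chromatin protein gene OsHMGB1, each kept with high or low phosphate (Pi), with 3 libraries in each of the 4 groups. Single libraries are written below by group and number, as WT-high 1 or mutant-low 3. All seedlings had 14 d of high Pi first and then 7 d of either high Pi or low Pi, in days of 12 h light (30 °C) and 12 h dark (22 °C). The design text gives 200 µM for both Pi conditions, so the low concentration is not clear. The sources used here do not name the strain or the kind of mutant allele. The labels do not say that the libraries of a group came from separate plants, and p-values here then cover only the spread among these libraries, which may be technical. The sources used here do not give the hour of harvest. For genes that cycle daily, a difference in hour between groups and a difference in Pi supply or genotype cannot be told apart.

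The plant clock is a loop of transcriptional repressors whose RNAs peak at successive times of day. In Arabidopsis the MYB factor LHY peaks around dawn and represses genes of the evening, the pseudo-response regulators (PRR) follow through the day and repress LHY, and ELF3 and LUX act in an evening complex. GI and the blue-light receptor FKF1, an F-box protein, act late in the day and connect the clock to flowering. In rice, PRR37, GI and ELF3-1 are known as regulators of heading date.

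The files place 9 of the 10 genes in the KEGG pathway of plant circadian rhythm. LUX, which they give another orthology group, is the exception. All 12 libraries were leaf-like: 15 of 21 loci described as Rubisco small subunit or chlorophyll a/b-binding protein had at least 100 FPKM in every library. FPKM are fragment counts scaled to transcript length and to the mapped fragments of the library, and they summed to between 549457 and 583292 per library. OsHMGB1 itself (LOC_Os06g51220) had 516 to 726 FPKM in the 6 mutant libraries and 1177 to 2147 in the 6 WT libraries, so its transcript was lower in the mutant at both Pi levels without being absent (log2 fold -1.19 and -1.48, limma adjusted p = 0.00257 and 0.000266). In bulk tissue, fewer cells of a type and less RNA per cell cannot be told apart.

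LHY was called lower and PRR1, PRR37, PRR59, PRR95 and GI were called higher at low than at high Pi, in WT and in the mutant. FKF1 was near 0 at high Pi and measurable at low Pi in both genotypes. Between genotypes LHY was called higher in the mutant at both Pi levels, though at high Pi the call was lost when any 1 of 4 libraries was left out (adjusted p from 0.0516 to 0.0655). At low Pi FKF1 was called lower in the mutant, and the 2 of 9 genes called there are near the 15.9% of all tested genes. Differences were tested on the log2(FPKM + 1) scale with limma, with Benjamini-Hochberg adjustment over the 17630 genes that reached 1 FPKM in at least 3 libraries, and a gene was called at an adjusted p below 0.05. Of the 10 clock genes 9 were tested. FKF1 passed that filter only through its 6 low-Pi libraries, and a gene admitted in that way had to differ, so its difference between Pi levels is described without a test. LUX reached 1 FPKM in 2 libraries and was not tested.

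Among the 8 tested clock genes other than FKF1, 6 were called between low and high Pi in WT, 5 higher and 1 lower. Over all tested genes 13.3% were called, 8.43% higher and 4.87% lower. Higher genes made up 63.4% of those calls, and 47.0% or 50.2% when FPKM were rescaled by median of ratios or upper quartile, while no called clock gene changed direction. In the mutant 6 of the 8 were called as well, again 5 higher and 1 lower, against 18.8% of all tested genes (10.5% higher and 8.28% lower). The same 6 genes were called in both: LHY, PRR1, PRR37, PRR59, PRR95 and GI. FKF1, which its low-Pi level alone admitted to the fit, is left out of these counts. With a log2 fold of at least 1 added to the call, 4 of these 8 passed in each genotype, where 3.05% and 3.7% of all genes did. The libraries of both Pi levels did not overlap for 6 of the 8 in WT and for 7 in the mutant, where 32.6% and 37.5% of all tested genes did not overlap. The median log2 fold of the 8 was 0.61 in WT and 0.72 in the mutant, beside medians of 0.07 and 0.0016 over all tested genes.

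LHY, the dawn-phased MYB repressor, had 295, 275 and 254 FPKM in the WT libraries at high Pi and 47.9, 32.3 and 32.8 at low Pi. The mutant libraries had 448, 496 and 483 FPKM at high Pi and 72.6, 72.6 and 60.7 at low Pi. No library of any group reached into the range of another, and the order of the group means was mutant at high Pi (476 ± 24.7, SD, n = 3), WT at high Pi (275 ± 20.8), mutant at low Pi (68.6 ± 6.9) and WT at low Pi (37.7 ± 8.9). LHY was thus 7.29-fold lower at low than at high Pi in WT (log2 fold -2.85, SE 0.15, limma adjusted p = 1.82e-06). It was 6.93-fold lower in the mutant (log2 fold -2.78, SE 0.15, adjusted p = 1.12e-06). Its log2 fold was the 14th most negative of all 17630 tested genes in WT and the 16th in the mutant.

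**Figure D1:**
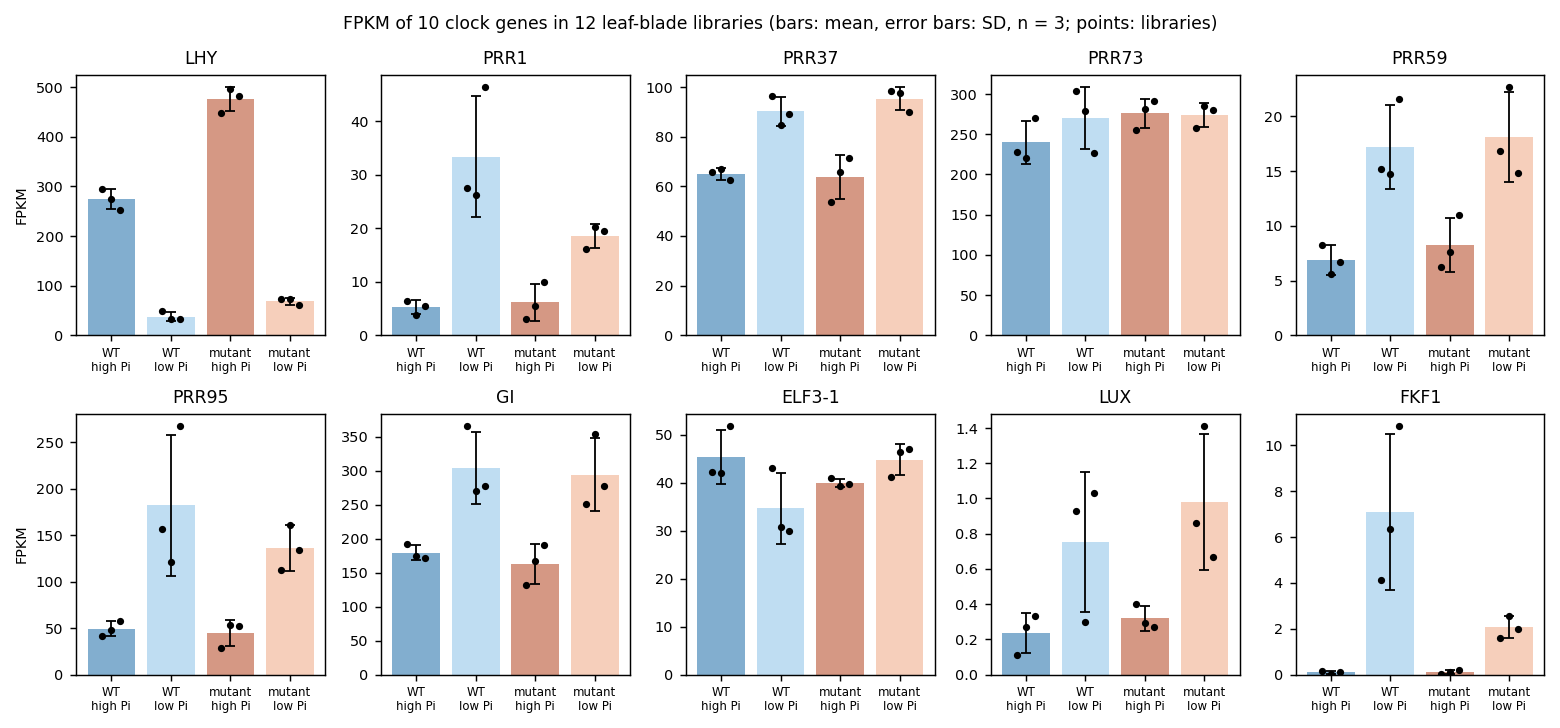
FPKM of each of the 10 clock genes (vertical axis, own scale per gene, starting at 0) in the 4 groups. Bars are means, error bars SD over 3 libraries and points the libraries, and LHY is high where PRR1, PRR59, PRR95, GI and FKF1 are low.

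The pseudo-response regulators, which repress LHY and its relatives in Arabidopsis, were not alike. PRR73, paired with PRR37 in 1 orthology group by the files, was the steadiest of the 10 genes, with 221 to 303 FPKM over the 12 libraries. Its group means lay between 240 ± 26.6 and 276 ± 18.3 FPKM, and every group overlapped its neighbour in the order of means. The change between Pi levels in WT had a 95% interval of -0.11 to 0.44 on the log2 scale (estimate 0.17, limma adjusted p = 0.434). In the mutant the interval was -0.29 to 0.27 (estimate -0.01, adjusted p = 0.961).

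PRR37, a repressor of flowering in long days, had 65.6, 67.0 and 62.4 FPKM in WT at high Pi and 96.5, 84.8 and 89.2 at low Pi. In the mutant the values were 53.9, 65.9 and 71.2 at high Pi and 98.3, 97.7 and 89.8 at low Pi. All 6 low-Pi libraries stood above all 6 high-Pi libraries, while the genotypes overlapped at each Pi level. The gene rose at low Pi by 0.46 on the log2 scale in WT (SE 0.11, limma adjusted p = 0.0155) and by 0.58 in the mutant (SE 0.11, adjusted p = 0.0036). The WT call was lost, with adjusted p-values from 0.0511 to 0.0638, when FPKM were rescaled by median of ratios or upper quartile, and without WT-high 3, without WT-low 1 and without WT-low 3.

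PRR59 and PRR95, which the files also give 1 shared orthology group, both rose at low Pi, from very different levels. PRR59 had 8.28, 5.55 and 6.71 FPKM in WT at high Pi and 15.2, 14.7 and 21.6 at low Pi. Mutant levels were 6.2, 7.57 and 10.96 FPKM at high Pi and 16.8, 22.7 and 14.8 at low Pi. Low-Pi libraries stood above high-Pi libraries in both genotypes, and the log2 fold was 1.20 in WT (SE 0.22, limma adjusted p = 0.00498) and 1.06 in the mutant (SE 0.22, adjusted p = 0.00728).

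PRR95 had 42.0, 48.1 and 57.7 FPKM in WT at high Pi and 157, 121 and 267 at low Pi. In the mutant the levels were 28.6, 53.6 and 52.3 FPKM at high Pi and 112, 161 and 134 at low Pi. Here too the Pi levels did not overlap in either genotype, and WT library 3 at low Pi stood well above the other two of its group. The log2 fold was 1.79 in WT (SE 0.30, limma adjusted p = 0.00276) and 1.62 in the mutant (SE 0.30, adjusted p = 0.00367).

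PRR1, the rice counterpart of Arabidopsis TOC1, an evening-phased repressor of LHY, had 6.35, 3.86 and 5.5 FPKM in WT at high Pi and 27.5, 26.3 and 46.4 at low Pi. The mutant had 3.12, 5.47 and 9.94 FPKM at high Pi and 16.1, 20.3 and 19.6 at low Pi. The high-Pi groups overlapped, and WT at low Pi (33.4 ± 11.3 FPKM, n = 3) stood above the mutant at low Pi (18.6 ± 2.24), which stood above both. PRR1 rose at low Pi by 2.44 on the log2 scale in WT (SE 0.32, limma adjusted p = 0.000686) and by 1.56 in the mutant (SE 0.32, adjusted p = 0.00636).

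GI, a large nuclear protein that acts late in the day, had 192, 174 and 171 FPKM in WT at high Pi and 365, 269 and 277 at low Pi. In mutant libraries GI was at 131, 167 and 190 FPKM at high Pi and 251, 354 and 277 at low Pi. All low-Pi libraries again exceeded all high-Pi libraries. GI rose by 0.75 on the log2 scale in WT (SE 0.17, limma adjusted p = 0.0159) and by 0.85 in the mutant (SE 0.17, adjusted p = 0.00614). In WT this missed the threshold without WT-high 2 (adjusted p = 0.0532), WT-high 3 (0.0514) or WT-low 1 (0.0534).

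FKF1, the partner of GI in Arabidopsis, was almost undetected at high Pi: 0.16, 0.04 and 0.09 FPKM in WT and 0.01, 0.09 and 0.18 in the mutant. At low Pi it had 4.12, 6.35 and 10.8 FPKM in WT and 1.61, 2.57 and 2.01 in the mutant. The low-Pi groups separated from the high-Pi groups and from each other. On the log2(FPKM + 1) scale the low-Pi level exceeded the high-Pi level by 2.80 in WT and by 1.48 in the mutant, given as a description because the low-Pi libraries alone admitted the gene to the fit. With levels this near 0, the pseudocount sets the size of the difference: with 0.1 in place of 1 it was 5.13 in WT and 3.56 in the mutant.

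ELF3-1, which scaffolds the evening complex in Arabidopsis and shapes flowering time in rice, was not called between Pi levels in either genotype. It had 42.3, 42.0 and 51.7 FPKM in WT at high Pi and 43.0, 30.8 and 30.0 at low Pi, with WT-low 1 inside the high-Pi range. In the mutant it had 40.9, 39.2 and 39.8 FPKM at high Pi and 41.1, 46.3 and 46.9 at low Pi. The log2 difference of low from high Pi was -0.39 in WT (95% interval -0.69 to -0.10, limma adjusted p = 0.0796) and 0.16 in the mutant (-0.14 to 0.46, adjusted p = 0.444). The WT difference was called when FPKM were rescaled by median of ratios (adjusted p = 0.0276) or upper quartile (0.0334), and without WT-low 1 (log2 difference -0.56, adjusted p = 0.0107).

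LUX, a GARP-type DNA-binding factor of the evening complex in Arabidopsis, stayed at or below 1.41 FPKM in every library. It had 0.11, 0.27 and 0.33 FPKM in WT at high Pi and 0.93, 0.30 and 1.03 at low Pi. In the mutant it had 0.40, 0.29 and 0.27 FPKM at high Pi and 0.86, 1.41 and 0.67 at low Pi. The low-Pi libraries exceeded the high-Pi libraries in the mutant and overlapped them in WT. Without the filter on low values, over 28212 genes, the log2 difference was 0.48 in WT (limma adjusted p = 0.136) and 0.57 in the mutant (adjusted p = 0.0675).

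Between genotypes at high Pi, 1 of the 9 tested clock genes was called, beside 3.58% of all tested genes (1.3% higher and 2.27% lower in the mutant). This was LHY, 1.73-fold higher in the mutant (log2 fold 0.79, SE 0.15, limma adjusted p = 0.0189). With a log2 fold of at least 1 added to the call, 0 of the 9 passed, beside 0.828% of all. The call of LHY was lost, with adjusted p-values from 0.0516 to 0.0655, when WT-high 2 or 3 or mutant-high 2 or 3 was left out. The other 8 had log2 differences between -0.18 (PRR95) and 0.22 (PRR59), none of them called, at adjusted p-values from 0.359 (PRR73) to 0.992 (FKF1). Groups of libraries did not overlap for 2 of the 9, LHY and ELF3-1, where 24.2% of all tested genes did not overlap.

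At low Pi, 2 of the 9 were called between genotypes, beside 15.9% of all tested genes, so the share was near the background. Higher in the mutant were 1 of the 9 and 4.72% of all, lower 1 of the 9 and 11.1% of all (29.8% of all calls were higher, and 49.4% or 48.6% under the rescalings), and 1 of the 9 was called with a log2 fold of at least 1, beside 3.81% of all. The libraries did not overlap for 3 of the 9, LHY, PRR1 and FKF1, beside 37.7% of all. LHY was 1.82-fold higher in the mutant (log2 fold 0.87, SE 0.15, limma adjusted p = 0.00424), and FKF1 was lower (log2 fold -1.33, SE 0.25, adjusted p = 0.00654). The evening gene PRR1 had a log2 difference of -0.77 (95% interval -1.46 to -0.07), which was not called (adjusted p = 0.123), although the 3 mutant libraries lay below the 3 WT libraries. It was called in a fit to the 6 libraries of the comparison alone (adjusted p = 0.0487). ELF3-1 differed by 0.38 (95% interval 0.09 to 0.68, adjusted p = 0.0775) and was called under both rescalings (adjusted p = 0.026 and 0.0276) and without WT-low 1 (log2 difference 0.54, adjusted p = 0.012). PRR37, PRR73, PRR59, PRR95 and GI had log2 differences between -0.35 (PRR95) and 0.08 (PRR37).

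Whether the genotypes differed in their response to Pi was tested as the interaction, the log2 fold of the mutant minus that of WT. Limma called 0 of the 9 clock genes, beside 3.64% of all tested genes (1.49% positive and 2.14% negative, a positive share of 41.0%, or 53.2% and 51.0% under the rescalings), and 2 had an unadjusted p below 0.05, FKF1 and ELF3-1. For LHY the responses differed by 0.08 on the log2 scale (95% interval -0.38 to 0.53, adjusted p = 0.892). For FKF1 the difference was -1.32 (95% interval -2.08 to -0.56, adjusted p = 0.0621). FKF1 was near 0 at high Pi in both genotypes, so this value nearly repeats its genotype difference at low Pi (-1.33). It is therefore no separate result on the Pi response, and its size depends on the pseudocount. For ELF3-1 the difference was 0.55 (0.13 to 0.97, adjusted p = 0.14). Without WT-low 1, FKF1 and ELF3-1 were called, at -1.61 (adjusted p = 0.0107) and 0.71 (adjusted p = 0.0237). PRR1 had a difference of -0.88 with an interval from -1.86 to 0.11 (adjusted p = 0.325). The Pi comparisons and the genotype comparisons share libraries, so the values of a gene in them are not independent.

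**Figure D2:**
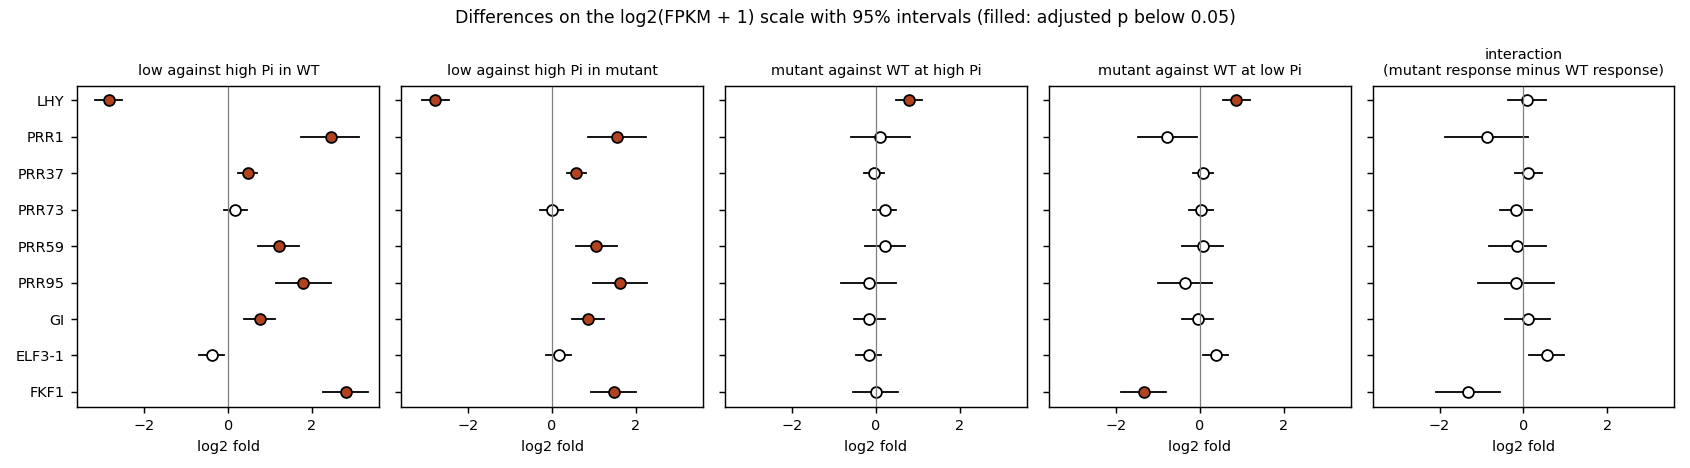
Differences on the log2(FPKM + 1) scale (horizontal axis) for the 9 tested clock genes in the 5 contrasts, with 95% intervals from the limma fit. Filled points have an adjusted p below 0.05, which for FKF1 between Pi levels is no test, since its low-Pi libraries admitted it, and LHY is the only gene filled in all 4 contrasts between groups.

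Ratios of LHY to genes of the day and evening were taken within each library, where they do not depend on library scaling. FPKM are corrected for transcript length, so such a ratio compares levels between genes. LHY exceeded GI 1.48 to 1.58-fold in the WT libraries at high Pi and 2.54 to 3.42-fold in the mutant libraries at high Pi. At low Pi the ratio of LHY to GI was 0.118 to 0.131 in WT and 0.205 to 0.289 in the mutant. The 4 groups did not overlap, and they kept this order for LHY over PRR95, with 4.4 to 7.03 in WT and 9.23 to 15.7 in the mutant at high Pi, and 0.123 to 0.306 in WT and 0.45 to 0.646 in the mutant at low Pi. For LHY over PRR1 the ratio was 46.1 to 71.3 in WT and 48.6 to 144 in the mutant at high Pi, where the genotypes overlapped. At low Pi it was 0.707 to 1.74 in WT and 3.1 to 4.51 in the mutant. These ratios are a description of values already tested above and were given no test of their own.

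**Figure D3:**
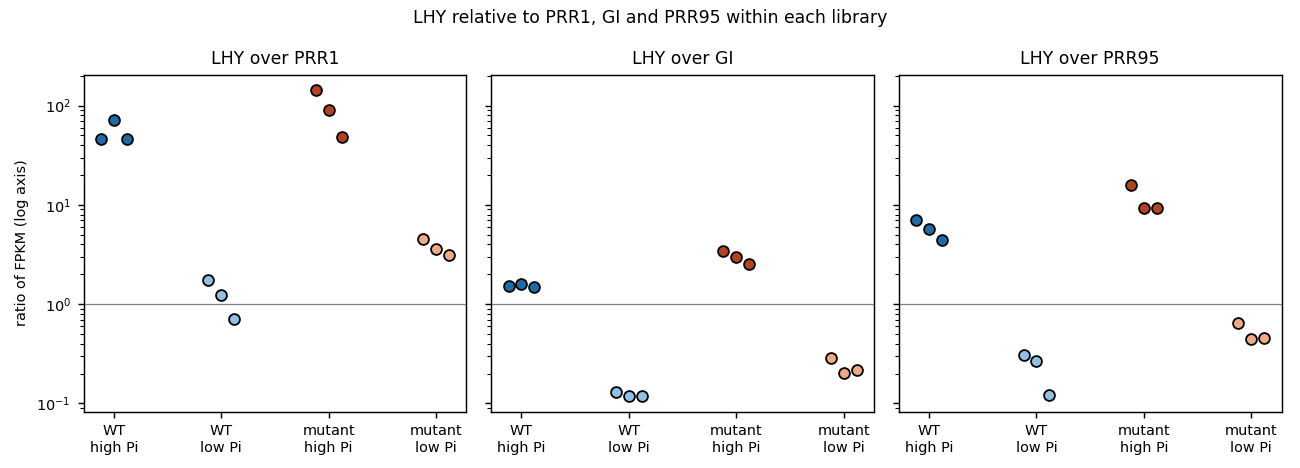
Ratio of the FPKM of LHY to that of PRR1, GI and PRR95 within each library (vertical log axis), by group. Each point is a library and the grey line marks equal levels, and both low-Pi groups lie far below both high-Pi groups in all 3 panels.

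Among libraries of the same group, the clock genes deviated from the group mean in both directions relative to each other. After subtraction of the group mean on the log2(FPKM + 1) scale, 13 of the 15 pairs among PRR1, PRR37, PRR59, PRR95, GI and FKF1 had a positive Pearson correlation over the 12 libraries, with a median of 0.56 and a range from -0.07 to 0.87. These 6 were grouped because they were higher at low Pi in these same libraries, FKF1 without a test. No such share was computed over other genes of the genome. Of the 30 other pairs of clock genes 19 were positive, with a median of 0.14 and a range from -0.58 (ELF3-1 with FKF1) to 0.77 (PRR73 with ELF3-1). The closest pair was PRR1 with PRR59 (0.87). With a pseudocount of 0.1 all 15 pairs of the 6 genes were positive (0.32 to 0.91), and FKF1 was then closest to PRR1 (0.91) and to PRR59 (0.88), beside 0.87 for PRR1 with PRR59. The pairs that changed sign were those of FKF1 with PRR37 (from -0.06 to 0.35) and with GI (from -0.07 to 0.32). FKF1 had 0.01 to 0.18 FPKM at high Pi, and a pseudocount of 0.1 enlarges its deviations at such levels. Within groups the correlations of LHY with these 6 had both signs, between -0.57 (FKF1, and -0.27 with a pseudocount of 0.1) and 0.66 (GI). Over the 12 libraries without that subtraction, LHY had correlations of -0.95 to -0.83 with them, which reflect the 4 groups. All these values share their libraries and are given as a description, with 8 degrees of freedom left after the group means.

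Some libraries stood at the edge of their group for many clock genes at once. In WT at low Pi, library 3 was the highest of its group for PRR1, PRR59, PRR95, LUX and FKF1, and library 1 was the highest for LHY, PRR37, PRR73, GI and ELF3-1. Library 2 of that group was the lowest for 7 of the 10 genes. Mutant library 1 at high Pi was the lowest of its group for 8 genes, and mutant library 2 at low Pi was the highest of its group for 7. With 3 libraries per group, every gene has 1 library that is highest and 1 that is lowest. The libraries named here are those with large counts, and no such counts were made over all tested genes. Whether the pattern is particular to clock genes was not tested. The largest deviations from a group mean were those of PRR1 in the mutant at high Pi, -0.69 in library 1 and 0.72 in library 3. The sources used here do not say whether libraries of a group were taken at the same hour.

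**Figure D4:**
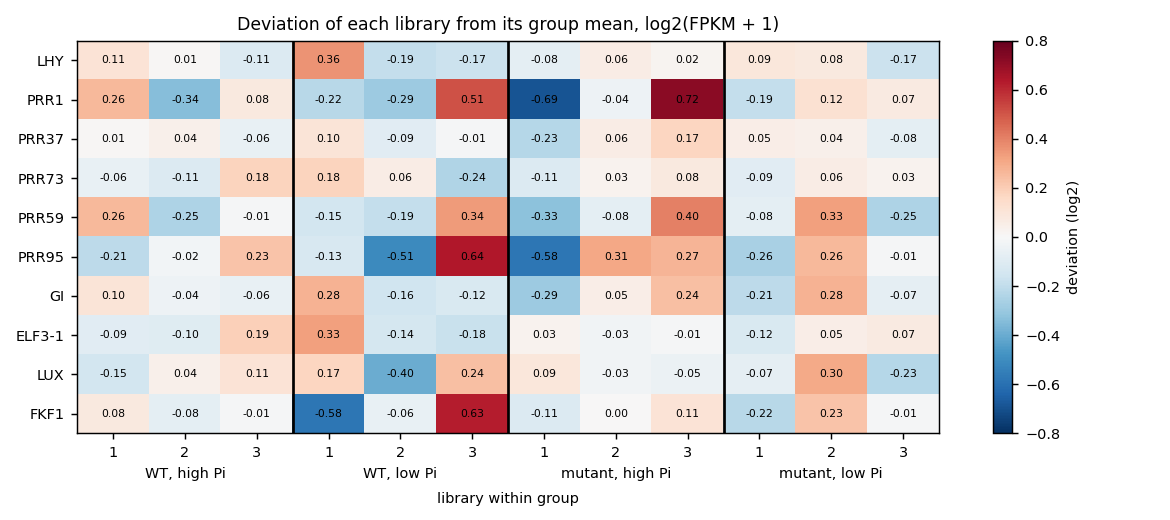
Deviation of each library from its group mean on the log2(FPKM + 1) scale, for the 10 clock genes (rows) in the 12 libraries (columns). Red is above and blue below the group mean, and WT-low 3 is red and mutant-high 1 blue for PRR1, PRR59 and PRR95 alike.

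Other genes with the pattern of a clock gene were ranked by Pearson correlation over the 12 libraries, among 8895 genes with a mean of at least 5 FPKM and an informative description. Group means were not subtracted, so these correlations include the differences between the 4 groups. Closest to LHY were LOC_Os02g57060, a putative C-terminal processing peptidase (r = 0.99), LOC_Os10g22430, described as a gibberellin response modulator (0.99), and LOC_Os11g47970, an AAA-type ATPase (0.99). The peptidase had means of 8.51 and 0.373 FPKM in WT (high, then low Pi) and of 16.0 and 1.01 in the mutant. The ATPase was far more abundant, with means of 12014, 5421, 16875 and 6848 FPKM in the same order. Most opposite to LHY was the thiamine biosynthesis gene thiC (LOC_Os03g47610, r = -0.98), with means of 1.99, 61.3, 1.05 and 34.0 FPKM. The protein kinase LOC_Os07g42770 had 4.35, 20.1, 2.73 and 12.8 FPKM, and the FAD-dependent oxidoreductase LOC_Os07g34570 had 17.9, 1217, 6.06 and 660 (r = -0.98 for each). Like LHY, each of these 6 had its extreme means in the mutant at high Pi and in WT at low Pi. Their choice by correlation with LHY over these libraries favours such an order, so it is no separate result.

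Closest to PRR95 were LOC_Os01g68160, a C2H2 zinc finger protein (r = 0.99), LOC_Os01g18630, an aspartic proteinase (0.97), and LOC_Os05g45920, with an S1 RNA-binding domain (0.96). Closest to GI were LOC_Os02g35630, an AAA family ATPase (0.96), the RNA helicase LOC_Os01g11370 (0.96), and LOC_Os07g41720, a subunit of nuclear factor Y (0.95). Closest to PRR1 were the DnaJ protein LOC_Os03g18870 (0.98), the metallo-beta-lactamase LOC_Os02g33610 (0.97) and the exonuclease LOC_Os01g65220 (0.97). The DnaJ gene, chosen by its correlation with PRR1, had means of 11.7, 70.8, 11.6 and 37.7 FPKM in the group order used above, highest in WT at low Pi, as was PRR1.

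Genes next to the core clock were counted in lists. Of 7 tested loci among 9 further clock components (a second ELF3 gene, ZTL-type F-box genes, LHY-like MYB genes and casein kinases), limma called 0 between Pi levels in WT, with 3 at an unadjusted p below 0.05 (0.0% beside 13.3% of all tested genes), and 1 in the mutant (14.3% beside 18.8%). This was the ELF3 homologue LOC_Os01g38530, which rose from 1.37 ± 0.43 to 5.02 ± 1.0 FPKM in the mutant (log2 fold 1.35, adjusted p = 0.00221). In WT it had 3.24 ± 1.27 FPKM at high and 5.6 ± 1.38 at low Pi (adjusted p = 0.0787, and 0.0258 without WT-high 3). The MYB gene LOC_Os06g51260, which the files give the orthology group of LHY, had 57.0 ± 10.7 FPKM in WT at high Pi and 27.3 ± 9.79 at low Pi (log2 difference -1.08, adjusted p = 0.0776). That difference was called in a fit to the 6 WT libraries alone (0.0421) and without mutant-high 3 (0.0392). The mutant had 63.3 ± 31.0 and 43.9 ± 16.8 FPKM (log2 difference -0.49, adjusted p = 0.386). Another MYB gene, LOC_Os06g01670, had log2 differences of -0.21 in WT (limma adjusted p = 0.135) and -0.20 in the mutant (0.132). Its WT difference was called under rescaling by median of ratios (0.0303) or upper quartile (0.0391). Between genotypes limma called 0 of the 7 at high Pi, with 1 at an unadjusted p below 0.05 (0.0% beside 3.58%). At low Pi it called 1, the casein kinase gene LOC_Os03g57940, lower in the mutant (14.3% beside 15.9%). In the interaction it called 0, with 0 at an unadjusted p below 0.05.

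Of 12 tested genes for photoreceptors and light signalling, 2 fell and 0 rose at low Pi in WT (16.7% beside 13.3% of all tested genes), and 1 fell and 0 rose in the mutant (8.33% beside 18.8%). The locus described as phytochrome-interacting factor 4 (LOC_Os03g56950), a class of bHLH factors that phytochromes destabilise in the light, fell from 114 ± 6.52 to 57.5 ± 10.2 FPKM in WT (log2 fold -0.99, limma adjusted p = 0.00364). Mutant libraries showed a fall from 120 ± 29.1 to 71.7 ± 8.01 FPKM (log2 fold -0.72, adjusted p = 0.0143), which missed the threshold without mutant-low 3 (adjusted p = 0.0569). The phytochrome A-associated F-box gene LOC_Os05g30190 fell in WT from 16.8 ± 1.81 to 11.8 ± 0.894 FPKM (log2 fold -0.47, adjusted p = 0.0152), which missed the threshold without WT-high 2 (0.06) or WT-low 3 (0.0661). At low Pi, 3 of the 12 were higher in the mutant than in WT (25.0% beside 15.9% of all tested genes), LOC_Os02g36380, LOC_Os04g37920 and LOC_Os02g41550, each described in the files by an FAD-binding domain of DNA photolyase. LOC_Os04g37920 had 51.3 ± 9.46 FPKM in WT and 79.4 ± 1.93 in the mutant (log2 fold 0.63, adjusted p = 0.0111). Its log2 difference of low from high Pi was -0.36 in WT (limma adjusted p = 0.108) and 0.33 in the mutant (0.109), neither called. Its interaction was 0.69 (adjusted p = 0.0724), called under rescaling by median of ratios (0.0466) and without WT-low 1 (0.0247). At high Pi limma called 0 of the 12 between genotypes, with 2 at an unadjusted p below 0.05. In the interaction limma called 0 of the 12, with 2 at an unadjusted p below 0.05 (0.0% beside 3.64% of all tested genes).

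Of the photoperiod flowering loci listed, 4 were tested. A further 3, Hd1, Ghd7 and DTH8, stayed at or below 0.72 FPKM in all libraries. Of the 4, 2 fell and 0 rose at low Pi in WT (50.0% beside 13.3% of all tested genes), and 1 fell and 0 rose in the mutant (25.0% beside 18.8%). LOC_Os01g15900, given the orthology group K16222 and no informative description, fell in both genotypes, from 10.1 ± 1.93 to 0.803 ± 0.595 FPKM in WT (log2 fold -2.66, limma adjusted p = 9e-05) and from 15.5 ± 5.08 to 1.95 ± 0.307 in the mutant (-2.44, adjusted p = 0.000145). The CCT/B-box gene LOC_Os02g39710 fell from 108 ± 21.8 to 31.0 ± 9.91 FPKM in WT (log2 fold -1.79, adjusted p = 0.000409), while the mutant had 89.1 ± 17.8 FPKM at high and 94.2 ± 3.79 at low Pi (0.10, adjusted p = 0.79). The other two were not called: LOC_Os03g07360, also in K16222, had log2 differences of 0.07 in WT (adjusted p = 0.793) and -0.08 in the mutant (0.737), and LOC_Os01g69850, described as OsMADS65, had 0.03 (0.878) and 0.26 (0.109).

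Over the KEGG pathway of plant circadian rhythm without the 10 clock genes, 101 of 175 genes were tested, and 23 of the 175 also stand in the 3 lists above. At low Pi 5 rose and 10 fell in WT, which is 14.9% beside 13.3% of all genes, and 5 rose and 15 fell in the mutant, 19.8% beside 18.8%. Their median log2 fold was -0.01 in each genotype. The CCT/B-box gene LOC_Os09g06464 fell in both (log2 fold -1.01, limma adjusted p = 0.000864, and -0.86, adjusted p = 0.00171). LOC_Os01g52640, described as a suppressor of phytochrome A, fell in WT from 51.1 ± 1.01 to 21.6 ± 7.44 FPKM (-1.25, adjusted p = 0.00147). In the mutant it fell from 50.6 ± 0.58 to 32.3 ± 6.02 FPKM (-0.65, adjusted p = 0.0342), which missed the threshold in the absence of a filter (0.0577) and without any of mutant-high 1, 2 and 3 or mutant-low 2 and 3 (0.0666 to 0.119). Between genotypes 3 of the 101 were called at high Pi, 2 higher and 1 lower in the mutant (2.97% beside 3.58% of all tested genes), and 19 at low Pi, 7 higher and 12 lower (18.8% beside 15.9%).

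Of genes with the GO term circadian rhythm outside the 10 clock genes, 45 of 63 were tested, and 17 of the 63 stand in the KEGG list as well. In WT 5 rose and 4 fell at low Pi (20.0% beside 13.3% of all tested genes), and in the mutant 9 rose and 4 fell (28.9% beside 18.8%), with a median log2 fold of 0.02 and -0.02. Among the risers were the dual-specificity phosphatase LOC_Os03g01750 (log2 fold 1.15 in WT and 1.13 in the mutant, limma adjusted p = 0.00147 and 0.00138) and the abundant RNA recognition motif gene LOC_Os03g46770. The latter went from 1762 ± 155 to 3416 ± 320 FPKM in WT (0.95, adjusted p = 0.00534, and 0.0645 in the absence of a filter) and from 1162 ± 126 to 3054 ± 556 in the mutant (1.38, adjusted p = 0.000526). Among those that fell, LOC_Os03g27019, with no informative description, went from 292 ± 24.2 to 162 ± 9.37 FPKM in WT (-0.85, adjusted p = 0.000479) and from 360 ± 31.1 to 223 ± 10.3 in the mutant (-0.69, adjusted p = 0.00131). LOC_Os05g43650, likewise without one, fell by 0.62 in WT (adjusted p = 0.00732) and by 0.75 in the mutant (adjusted p = 0.00198). Between genotypes limma called 0 of the 45 at high Pi, with 14 at an unadjusted p below 0.05 (0.0% beside 3.58% of all tested genes), and 5 at low Pi (11.1% beside 15.9%).

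**Figure D5:**
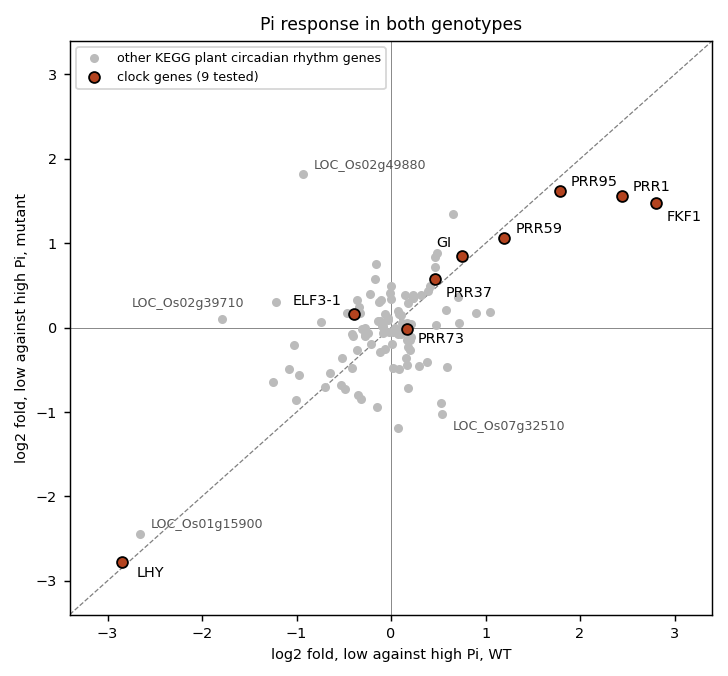
Log2 fold of low against high Pi in WT (horizontal axis) and in the mutant (vertical axis) for the 9 tested clock genes and the 101 other tested genes of the KEGG plant circadian rhythm pathway, with the dashed line marking equal folds. LHY lies at -2.85 and -2.78 near LOC_Os01g15900, and most of the grey points lie close to 0 in both genotypes.

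The authors' deposited table gives its own q-values, printed to 2 decimals. Shares of all genes in this paragraph are over 32846 genes, not over the 17630 tested with limma, so they cannot be set against the shares above. For low against high Pi in WT, the authors' deposited table has a q below 0.05 for 6 of the 10 clock genes (LHY, PRR1, PRR59, PRR95, GI and FKF1), beside 6.39% of all genes. In the mutant, the authors' deposited table has it for 8, with PRR37 (q = 0.04) and LUX (q = 0.01) added, beside 8.22%. For WT the authors' deposited table prints q = 0.05 for LUX, which after rounding may lie on either side of the threshold. Between genotypes it is LHY alone at high Pi (2.11% of all genes) and LHY, PRR1 and FKF1 at low Pi (9.22%) in the authors' deposited table. The limma calls above differ from these in PRR37 in WT, in PRR1 between genotypes at low Pi, and in LUX, which was not tested. FKF1 between Pi levels was given above without a test.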

How the data were processed

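Leaf-blade RNA of 12 samples was sequenced. CASAVA 2.17, HISAT2 2.0.5 and StringTie 1.3.6 are named, without their roles, in the submitters' processing notes. The sources used here give no genome build or annotation. The authors deposited FPKM per gene and library in 4 tables of 32846 genes, per the file headers. Each library stood in 2 tables with identical values. The tables also hold the authors' p-values and q-values, deposited with 2 decimals, and the sources used here do not name their test. Read counts were not analysed here, so the depth behind a value is unknown and no counting interval is given. Reads shared between near-identical loci cannot be assigned with certainty.

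Genes with at least 1 FPKM in at least 3 of 12 libraries (17630) were transformed to log2(FPKM + 1), a scale that understates changes of weak genes. A model of 4 group means was fitted by limma 3.58.1 under R 4.3.3 (mean trend, two-sided, no block), tested on simulated data first. Its 5 contrasts were adjusted over all tested genes by Benjamini-Hochberg, with calls at an adjusted p below 0.05. Tables and plots used Python 3.11.15, pandas 2.3.3, numpy 2.4.6 and matplotlib 3.10.9. Alternatives were a pseudocount of 0.1, a filter of 5 FPKM or none, both rescalings, no trend, the libraries of a comparison alone, a replicate block and each library left out.

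The clock genes and the lists were chosen with earlier results of these data known, and locus names come from general knowledge. Genes named were all 10 clock genes, OsHMGB1, the closest 3 neighbours of LHY, PRR95, GI and PRR1 (and the 3 most opposite to LHY), and list genes. The list genes came from up to 4 per list with the smallest p between Pi levels in WT, not all of them printed. Added to these were list genes with a called interaction. Further clock components and photoreceptor genes called between genotypes at low Pi were also named. Some loci of the flowering list are not reported here. No sequences were used here.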

Additional observations from a re-analysis of the deposited data

Results flagged for a closer look

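For 5 genes of the KEGG plant circadian rhythm list, none of them among the 10 clock genes, the difference between the genotypes in Pi response was called by limma's interaction test. They are 5 of the 101 tested genes of that list, 4.95% beside 3.64% of all tested genes, a share near the background. The CCT/B-box gene LOC_Os02g39710 (taken as COL4) differed by 1.89 on the log2 scale (adjusted p = 0.00847), with 108 FPKM at high and 31.0 at low Pi in WT, and 89.1 and 94.2 in the mutant. The CCT/B-box gene LOC_Os02g49880 differed by 2.75 (adjusted p = 0.00978), with means of 7.33 and 3.78 FPKM in WT and 2.45 and 11.0 in the mutant. The dof zinc finger gene LOC_Os07g32510 differed by -1.55 (adjusted p = 0.000773), rising from 5.3 to 8.15 FPKM in WT and falling from 8.42 to 3.67 in the mutant, with both of these changes called. The CCT/B-box gene LOC_Os02g08150 differed by -1.06 (adjusted p = 0.0183), with 80.9 and 125 FPKM in WT and 105 and 75.1 in the mutant. That call was lost without WT-high 2 (0.0569) or mutant-low 2 (0.053). LOC_Os07g48570, with no informative description, differed by -0.79 (adjusted p = 0.0384), with 31.6 and 28.7 FPKM in WT and 50.3 and 25.7 in the mutant. Its call was lost in the absence of a filter (0.063) and without WT-high 2 or 3, mutant-high 2 or 3, or any of mutant-low 1, 2 and 3 (0.0558 to 0.101).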

How the results depend on the processing

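Of 886 recomputed values for the clock genes, 865 stayed on the same side of the threshold, 12 were no longer called, 9 were newly called and 0 changed direction as called values. The 865 include FKF1 between Pi levels, with 19 values in WT and 19 in the mutant. Those are no test, because the low-Pi libraries alone admitted that gene. The calls of LHY, PRR1, PRR59 and PRR95 between Pi levels held under every alternative that could be run in both genotypes. FKF1 could not be tested with a filter of 5 FPKM. That filter left 8 clock genes tested and 1 of them, LHY, called between genotypes at low Pi in place of 2. With 1 library left out, 5 to 7 clock genes, FKF1 among them, were called between Pi levels in WT and 7 to 7 in the mutant, 0 to 1 between genotypes at high Pi, 2 to 3 at low Pi and 0 to 2 in the interaction. Over all genes the counts then ran from 1147 to 2622 in WT (2345 with all libraries), 1984 to 3321 in the mutant (3307), 177 to 851 between genotypes at high Pi (631), 1274 to 3073 at low Pi (2796) and 259 to 878 in the interaction (641). Between genotypes at high Pi, the 631 of 17630 tested genes became 417 of 12174 with a filter of 5 FPKM. With the libraries of the comparison alone they became 103 of 17630. The 641 interaction calls became 366 of 28212 tested genes without a filter. The causes were not tested. The labels do not say whether a replicate number marks a shared plant or day. Of 18 correlations of same-numbered libraries, taken on deviations from group means, 3 exceeded 0.1, with a median of -0.145. For 36 pairs with different numbers the median was 0.083. With groups of 3 libraries these correlations cannot settle whether the numbers pair the libraries. With the replicate block, 312 genes were called between genotypes at high Pi, 391 in the interaction, 1763 between Pi levels in WT, 2633 in the mutant and 2165 between genotypes at low Pi. Between Pi levels 7 clock genes were then called in WT and 7 in the mutant, FKF1 among them. Between genotypes 1 was called at high Pi and 2 at low Pi, and 0 were called in the interaction. Read depth is unknown, so the precision of FKF1 and LUX near 0 FPKM cannot be stated.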
